A study of Mus musculus with 2 samples.

Results

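The mouse metallothionein cluster holds 4 genes, Mt1, Mt2, Mt3 and Mt4, which are 4 of the 21911 protein-coding genes counted here. All 4 lie on the plus strand of chromosome 8 (mm10, the same assembly as GRCm38). Mt1 occupies 94179082 to 94180327, Mt2 occupies 94172664 to 94173568, Mt3 occupies 94152607 to 94154146 and Mt4 occupies 94137197 to 94139031. The Mt2 start thus lies 6.42 kb before the Mt1 start, the Mt3 start 26.5 kb before it and the Mt4 start 41.9 kb before it. The cluster was selected on accessibility values of these same libraries, because Mt2 had stood among the genes that marked a group of astrocyte-like nuclei drawn mostly from stroke brain. The Mt2 difference in astrocytes, and the level of Mt2 in astrocytes against other classes, are therefore given as descriptions, and the other 3 genes were taken because they are its neighbours.

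Metallothioneins are small, cysteine-rich proteins that bind zinc and copper and scavenge oxidants. Mt1 and Mt2 are made in most tissues, in brain mainly by astrocytes, and are induced by metals through the factor Mtf1, by glucocorticoids and by cytokines that act through Stat3. Mt3 is the brain form, described as a neuronal growth inhibitory factor and much less inducible, and Mt4 is the form of stratified squamous epithelium. Induction of Mt1 and Mt2 is a well known response to ischemia. Regulatory DNA before Mt2 is known to carry glucocorticoid response elements that serve both Mt2 and Mt1.

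Accessible chromatin was profiled by scATAC-seq, in which a transposase cuts open DNA and each sequenced fragment carries the barcode of 1 nucleus. One library came from sham brains and the other from stroke brains, each of 4 pooled wild-type C57BL/6J males aged 8 to 12 weeks and taken at 48 h. Stroke was 1 h of middle cerebral artery occlusion followed by reperfusion, and the ipsilateral hemispheres were used. Sham mice had the filament inserted without a lasting occlusion and gave whole brains, and olfactory bulbs and cerebellum were left out. Each condition was thus 1 library of pooled mice, hemisphere and surgery differed together, and no spread between mice could be measured. The 95% intervals below are exact Poisson intervals for levels and exact conditional intervals for ratios, and cover counting error only.

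Of 6979 barcodes called as nuclei in sham and 8740 in stroke, 6817 and 5054 had over 20% of their fragments in peaks and were kept. Median fragments per kept nucleus were 10353 in sham and 9898 in stroke, and the kept nuclei held 73449269 and 52773775 fragments. The stroke library stood apart in keeping 57.8% of its called barcodes, against 97.7% in sham, and in having 34.3% of its kept fragments in peaks, against 40.4%. Of the called barcodes, 66 carried the same sequence in both libraries. Levels are fragments that overlap the gene body or the 2 kb before it, per 1000000 fragments of the same nuclei (CPM). In a sum over all nuclei, a different share of nuclei of a kind and a different level per nucleus cannot be told apart.

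Nuclei were gated into 8 classes by how far the fragments at known marker genes exceeded the number given by depth. The astrocyte gate held 256 sham and 308 stroke nuclei, with median depths of 12323 and 11103 fragments. All 12 astrocyte markers (Aqp4, Gja1, Aldh1l1 and 9 others) had fragments in both libraries, at 3.62 times in sham and 3.45 times in stroke the level over all kept nuclei of both libraries pooled, the base of every such multiple here. When nuclei were gated on alternate markers, the markers held out were at 1.87 and 1.98 times, so the gate enriched for astrocytes without isolating them. The gate is a range and not a type, and 177 sham and 192 stroke nuclei lay within 0.5 of the threshold. A second gate, which summed marker fragments over each nucleus and its 20 nearest neighbours, held 549 sham and 666 stroke nuclei.

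The sequences shown are the promoters of Mt1 and Mt2 and the 300 bases around the summits of 2 of the 5 stretches described below that were more accessible in stroke astrocytes, shown because they lie nearest to Mt2. They are plus-strand sequences from RefSeq and the GRCm38.p6 assembly, 5′ to 3′. Capitals mark matches, on either strand, to the metal response element (TGCACNC or TGCGCNC), AP-1 (TGANTCA), the core of the glucocorticoid receptor motif (ACANNNTGT) and C/EBP (TTGCNNAA). The 250 bases before the RefSeq start are shown for Mt1 (chr8:94178839-94179088) and Mt2 (chr8:94172368-94172617). The region before Mt2 is chr8:94171362-94171661 and the region between Mt2 and Mt1 is chr8:94174826-94175125.
Mt1 promoter: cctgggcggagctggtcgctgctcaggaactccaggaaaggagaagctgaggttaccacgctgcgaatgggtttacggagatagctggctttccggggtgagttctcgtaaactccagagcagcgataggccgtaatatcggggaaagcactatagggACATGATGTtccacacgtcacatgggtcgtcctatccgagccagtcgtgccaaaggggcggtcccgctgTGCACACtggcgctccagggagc
Mt2 promoter: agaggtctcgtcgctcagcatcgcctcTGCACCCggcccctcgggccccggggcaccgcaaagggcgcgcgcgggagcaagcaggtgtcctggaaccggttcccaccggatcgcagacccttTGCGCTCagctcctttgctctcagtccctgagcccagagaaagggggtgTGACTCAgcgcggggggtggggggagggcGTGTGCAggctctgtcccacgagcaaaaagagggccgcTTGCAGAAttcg
Region before Mt2: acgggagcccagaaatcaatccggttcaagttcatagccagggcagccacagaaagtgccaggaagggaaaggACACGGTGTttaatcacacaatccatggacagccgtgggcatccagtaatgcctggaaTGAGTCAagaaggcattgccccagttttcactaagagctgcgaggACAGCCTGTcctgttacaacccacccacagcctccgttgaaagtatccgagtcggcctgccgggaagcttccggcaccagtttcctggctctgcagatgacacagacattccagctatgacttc
Region between Mt2 and Mt1: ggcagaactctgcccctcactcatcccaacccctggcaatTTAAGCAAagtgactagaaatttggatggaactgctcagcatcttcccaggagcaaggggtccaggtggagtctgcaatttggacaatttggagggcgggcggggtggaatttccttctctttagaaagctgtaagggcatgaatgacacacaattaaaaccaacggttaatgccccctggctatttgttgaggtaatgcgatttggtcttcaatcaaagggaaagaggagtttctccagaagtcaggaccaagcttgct

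The Mt2 promoter held 3 metal response elements, at positions 28, 123 and 201 of the printed sequence, an AP-1 match at 172 and a C/EBP match at 239. C/EBP matches were found in 9.56% of promoters. Only 1.26% of 32851 RefSeq promoters of this length held 3 or more metal response elements. The 250 bases printed for Mt1 held 1 metal response element at position 228, a form found in 10.4% of promoters. They also held 1 glucocorticoid receptor match at 159, found in 5.84%. Only the 250 bases before each RefSeq start were searched. Elements outside them are not counted, so the Mt1 and Mt2 promoters cannot be ranked by these counts. The region before Mt2 held a pair of glucocorticoid receptor matches, at 74 and 177, which begin 1229 and 1126 bases before the Mt2 start. An AP-1 match lay between them, at position 132. Of 2514 open windows of 300 bases on chromosome 8, 5.65% held at least 1 such glucocorticoid receptor match, 0.318% held 2 or more and 8.67% held an AP-1 match. These windows were taken at bin centres and not at summits, and repeated matches were counted for only some motifs. The shares are therefore descriptive. The region between Mt2 and Mt1 held only a C/EBP match, at position 41, as did 9.23% of the open windows. The 300 bases around the summits of the 3 stretches after Mt1, which are not printed, were also searched. In order along the chromosome, the third had none of the motifs, the fourth an AP-1 match and the fifth 1 glucocorticoid receptor match. These 2 matches, at 94187517 and 94189566, lie just before the stretches themselves, in bins that were not over 2-fold higher in stroke. STAT (TTCNNNGAA) and E-box (CACGTG) matches were also searched, and none lay in the 4 printed sequences or in the 300 bases around those 3 summits. The rest of each stretch was not searched. The 250 bases before the Mt3 start held none of these matches, and those before Mt4 held 1 metal response element. A match is a string of letters and not a binding site measured here.

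Across all kept nuclei, Mt1 and Mt2 were more accessible in stroke, and the intervals of the Mt3 and Mt4 ratios included 1. Mt1 stood at 16.9 CPM in sham (1240 fragments) and 22.3 in stroke (1178 fragments), a ratio of 1.32 (1.22 to 1.43). Mt2 stood at 8.02 in sham (589 fragments) and 14.7 in stroke (776 fragments), a ratio of 1.83 (1.65 to 2.04). These intervals lay wholly above 1. Mt3 stood at 15.5 and 15.1 CPM, with a ratio of 0.971 (0.886 to 1.06). This ratio depended on the processing, since it was 1.14 (1.04 to 1.25) when scaled to fragments in peaks and 0.666 (0.610 to 0.727) with all called barcodes, both with intervals that excluded 1. Mt4 was the least accessible, at 1.97 CPM in sham (145 fragments) and 2.12 in stroke (112 fragments), with a ratio of 1.08 (0.833 to 1.39). Per kb of window, so that genes can be compared, sham levels ran from 5.20 CPM for Mt1 through 4.39 for Mt3 and 2.76 for Mt2 to 0.515 for Mt4. In stroke the order became Mt1 at 6.88, Mt2 at 5.06, Mt3 at 4.26 and Mt4 at 0.553, and in both libraries no neighbours in the order had overlapping intervals.

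No member passed 2-fold across all kept nuclei (0 of 4), where 4.55% of 20979 genes were over 2-fold higher in stroke and 0.0191% were over 2-fold lower. The Mt2 ratio lay above that of 94.0% of the genes compared and the Mt1 ratio above that of 83.1%. Since Mt2 was picked as marking mostly stroke nuclei of these libraries, its rank is only a description. The direction for Mt1 rested on the filter: with all called barcodes the Mt1 ratio was 0.913 (0.845 to 0.987) and the Mt2 ratio 1.32 (1.19 to 1.47). The 3686 called stroke barcodes below the filter had 4.49 CPM at Mt1 and 4.10 CPM at Mt2.

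Astrocytes had the most accessible Mt1, Mt2 and Mt3 of the 8 gated classes in both libraries, though for Mt3 in sham the next class, OPC, overlapped at 19.7 CPM (14.9 to 25.4). In sham, astrocyte-gated nuclei had 37.7 CPM at Mt1 (126 fragments), 30.2 CPM at Mt2 (101) and 30.5 CPM at Mt3 (102). In stroke they had 39.8 CPM at Mt1 (146), 52.3 CPM at Mt2 (192) and 30.5 CPM at Mt3 (112). Per kb of window, Mt1 came first in sham, at 11.6 against 10.4 for Mt2 with overlapping intervals. By the same measure Mt2 came first in stroke, at 18.0 against 12.2 with intervals that did not overlap. That stroke order depended on the window. Within 250 bases on either side of the starts, stroke levels were 30.5 CPM at Mt1 and 25.6 at Mt2, with overlapping intervals. Mt4 had 8 fragments in sham and 7 in stroke and was too sparse to compare.

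Levels in astrocytes were set against those of the other classes, and for Mt2, which was picked as a marker of astrocyte-like nuclei, this restates the choice. Relative to the other 7 gated classes together, astrocyte-gated nuclei had 4.46 times the Mt2 level in sham (3.44 to 5.76) and 4.69 times in stroke (3.76 to 5.86). The same ratio for Mt1 was 2.33 in sham (1.89 to 2.86) and 1.68 in stroke (1.37 to 2.05), and for Mt3 it was 2.12 and 2.34. For Mt4 it was 0.991 and 0.591, with intervals that included 1. The astrocyte level of Mt2 lay clear of the next class in both libraries, while in stroke the astrocyte interval of Mt1 overlapped that of the next class, vascular and leptomeningeal, at 29.7 CPM (20.6 to 41.5). The levels of the other 7 classes mostly had overlapping intervals and their order is not read further. Mt4 was highest in the striatal projection neuron gate in both libraries, at 4.73 CPM in sham (35 fragments) and 5.27 in stroke (12 fragments), though the next class overlapped it.

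**Figure D1:**
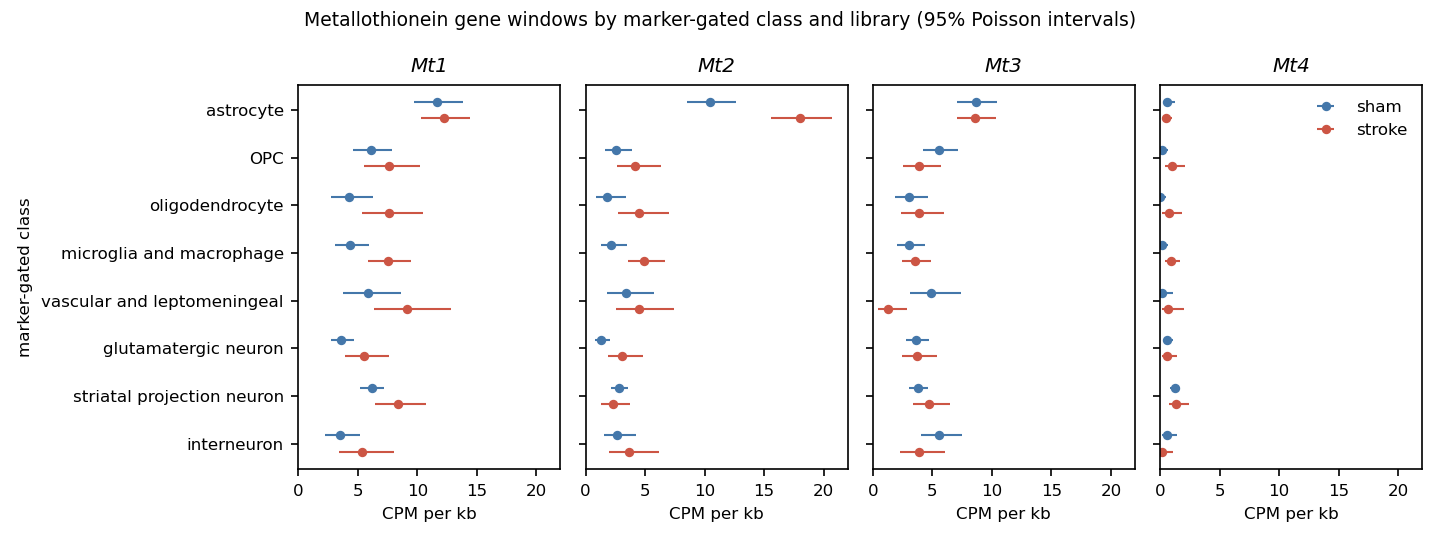
CPM per kb of window for Mt1, Mt2, Mt3 and Mt4 in each marker-gated class, sham in blue and stroke in red, with 95% Poisson intervals. The astrocyte point of Mt2 moved from 10.4 in sham to 18.0 in stroke, while those of Mt1 and Mt3 stayed within overlapping intervals.

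Within the astrocyte gate, Mt2 was the only member whose ratio interval excluded 1. Its ratio of stroke to sham was 1.73 (1.35 to 2.22), against 1.05 for Mt1 (0.825 to 1.35) and 0.999 for Mt3 (0.757 to 1.32). The neighbour-based gate gave 1.38 for Mt2 (1.15 to 1.66), 0.918 for Mt1 (0.761 to 1.11) and 0.841 for Mt3 (0.673 to 1.05). None of the 3 members with at least 20 fragments passed 2-fold in the astrocyte gate (0 of 3), where 2.67% of 16877 genes were over 2-fold higher in stroke and 1.71% were over 2-fold lower. The Mt2 ratio lay above that of 95.4% of those genes, a rank that is likewise not independent of how Mt2 was picked. Markers of other classes differed with the condition inside this gate. The 19 vascular and leptomeningeal markers together went from 1.03 to 1.32 times the level of all kept nuclei and the 13 glutamatergic markers from 0.692 to 0.544 times. The 17 microglia and macrophage markers went from 0.794 to 0.884 times and the 9 striatal projection neuron markers from 0.815 to 0.657 times, and none of these 4 lists had overlapping intervals of its summed CPM between sham and stroke. The 8 granulocyte and monocyte markers stood at 34.4 CPM in sham and 25.3 in stroke. Their part in the Mt2 difference was not tested.

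Outside astrocytes, both Mt1 and Mt2 were higher in stroke. In the other 7 gated classes together (1670 sham and 1000 stroke nuclei), Mt1 went from 16.2 CPM in sham to 23.7 in stroke, a ratio of 1.46 (1.25 to 1.70). Mt2 went from 6.78 to 11.1, a ratio of 1.64 (1.30 to 2.07), and Mt3 from 14.4 to 13.1, a ratio of 0.908 (0.751 to 1.10). These 7 gates were of uneven quality, since held-out markers ranged from 0.973 times all kept nuclei for stroke glutamatergic neurons to 2.89 times for stroke oligodendrocytes. Their mix also differed, with 496 sham and 165 stroke nuclei in the striatal projection neuron gate. In sums over these classes, a different mix and a different level per nucleus cannot be told apart. In the microglia and macrophage gate (190 sham and 194 stroke nuclei), Mt1 had 38 and 70 fragments, a ratio of 1.74 (1.15 to 2.65), and Mt2 had 17 and 41 fragments, a ratio of 2.27 (1.26 to 4.26). Granulocyte and monocyte markers stood at 1.25 times all kept nuclei in the sham part of that gate and at 2.09 times in the stroke part, and their part in the result was not tested. In the oligodendrocyte gate (150 and 123 nuclei) the ratios were 1.78 for Mt1 (1.04 to 3.07) and 2.44 for Mt2 (1.08 to 5.88). Mt1 ratios were 1.26 in OPC, 1.54 in glutamatergic neurons, 1.36 in striatal projection neurons, 1.53 in interneurons and 1.57 in the vascular and leptomeningeal gate. All of those Mt1 intervals included 1. With the neighbour-based gate the Mt1 ratio was 0.977 in OPC (0.610 to 1.56) and 1.45 in glutamatergic neurons (1.21 to 1.75). In glutamatergic neurons Mt2 had 18 and 19 fragments, a ratio of 2.35 (1.17 to 4.74), and with the neighbour-based gate 112 and 104 fragments, a ratio of 1.91 (1.44 to 2.51). Mt4 rested on few fragments in every class, and its intervals lay above 1 in the microglia and macrophage gate (2 and 10 fragments, a ratio of 4.71, 1.004 to 44.2) and in the OPC gate (2 and 7 fragments, a ratio of 5.67, 1.08 to 55.9). With the neighbour-based gate both intervals included 1. With the neighbour-based gate the microglia and macrophage ratio for Mt2 was 6.97 (2.28 to 34.7), on 3 sham and 65 stroke fragments. Mt2 in striatal projection neurons had 60 sham and 15 stroke fragments and a ratio of 0.813 (0.429 to 1.45), and the neighbour-based gate turned the direction, at 1.13 (0.759 to 1.65). That gate also turned the direction of Mt2 in the vascular and leptomeningeal class, from 1.33 to 0.860, and in interneurons, from 1.37 to 0.954, and all of these intervals included 1. Mt3 in the vascular and leptomeningeal gate had 23 sham and 5 stroke fragments, a ratio of 0.251 (0.0746 to 0.676), from 104 nuclei in each library. With the neighbour-based gate it had 10 and 9 fragments and a ratio of 0.446 with an interval that included 1 (0.161 to 1.22).

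The gain of Mt2 in astrocytes lay mostly before its promoter. The 250 bases on either side of the Mt2 start held 77 sham and 94 stroke fragments in astrocyte-gated nuclei, or 23.1 and 25.6 CPM, a ratio of 1.11 (0.813 to 1.52). The gene body held 55 and 71 fragments, a ratio of 1.17. In contrast, the part of the window from 2 kb to 500 bases before the start held 11 sham and 84 stroke fragments, or 3.29 and 22.9 CPM. That ratio was 6.95 (3.69 to 14.4), and with the neighbour-based gate, at 28 and 152 fragments, it was 3.99 (2.65 to 6.21). Most of this DNA is also covered by Gm45774, an antisense gene on the minus strand (94170748 to 94173412), and accessibility has no strand, so the signal cannot be given to either gene. The Mt1 start was likewise open in sham astrocytes, with 109 and 112 fragments within 250 bases on either side, or 32.6 and 30.5 CPM, a ratio of 0.935 (0.712 to 1.23). The Mt3 start had 76 and 71 fragments and a ratio of 0.850 (0.606 to 1.19). With the neighbour-based gate the Mt3 start was lower in stroke, at 120 and 117 fragments and a ratio of 0.717 (0.551 to 0.933), while the intervals of the Mt1 and Mt2 starts included 1 with ratios of 0.849 and 0.912.

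In the other 7 classes together, both the Mt2 start and the DNA before it were higher in stroke. The part from 2 kb to 500 bases before Mt2 had 63 sham and 61 stroke fragments, or 2.72 and 4.69 CPM, a ratio of 1.72 (1.19 to 2.49). The Mt2 start went from 53 fragments in sham to 68 in stroke, or from 2.29 to 5.22 CPM, a ratio of 2.28 (1.57 to 3.33). The Mt1 start went from 287 fragments to 232, or from 12.4 to 17.8 CPM, a ratio of 1.44 (1.2 to 1.72). The stroke level of the Mt2 start in these classes remained below the sham level in astrocytes. In the microglia and macrophage gate the Mt2 start had 4 sham and 21 stroke fragments, a ratio of 4.94 (1.67 to 19.8), and the Mt1 start had 27 and 59, a ratio of 2.06 (1.28 to 3.38). The difference between astrocytes and the other classes in these ratios was not tested, since each condition had 1 library.

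**Figure D2:**
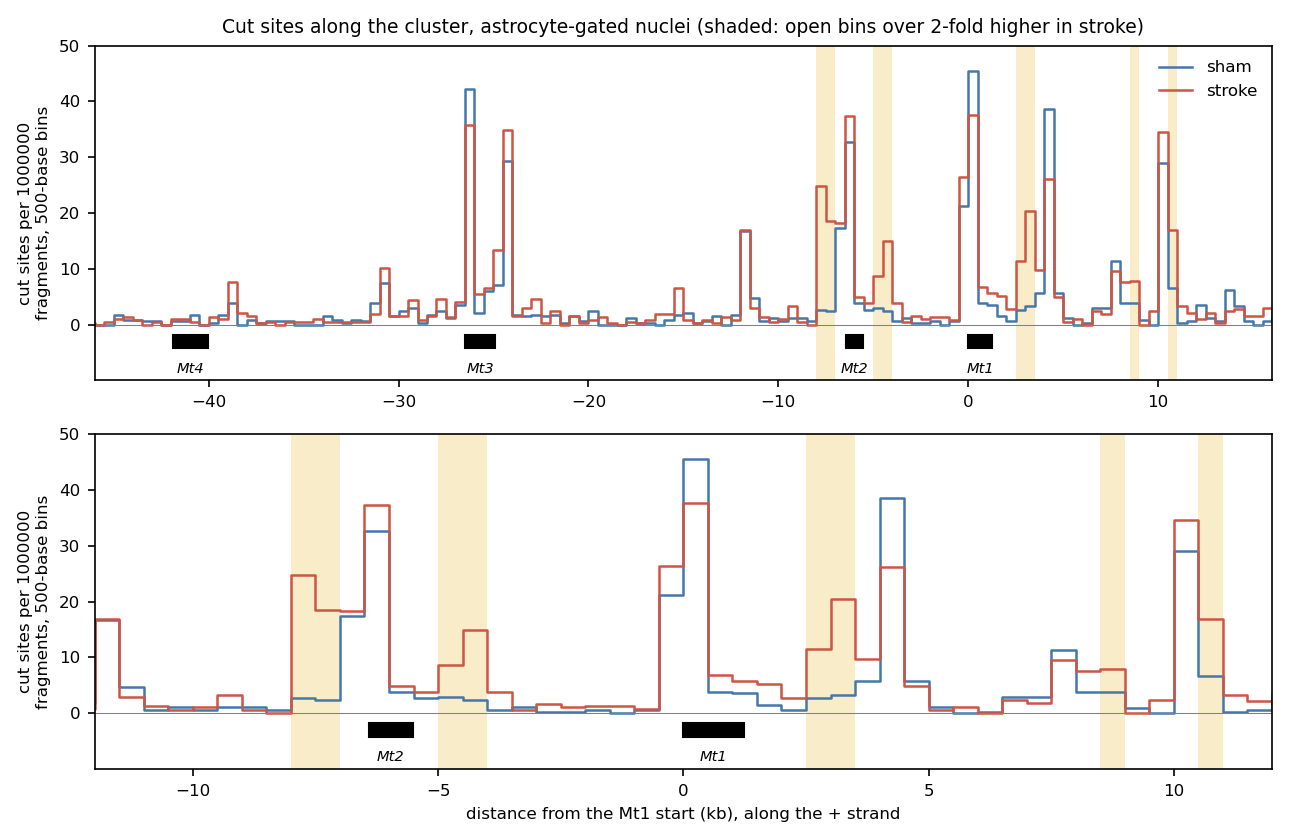
Cut sites (fragment ends) per 1000000 fragments in 500-base bins along the cluster in astrocyte-gated nuclei, sham in blue and stroke in red, by distance from the Mt1 start in kb; black boxes are the genes, and the lower panel enlarges Mt2 and Mt1. The 8 shaded bins were over 2-fold higher in stroke and lie before and after Mt2 and after Mt1, while the bins with the tallest peaks, at the gene starts and elsewhere, are not shaded.

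From 62 kb before to 40 kb after the Mt1 start, 33 bins of 500 bases were open in astrocyte-gated nuclei (a mean over both libraries of at least 5 cut sites per 1000000 fragments). Of these, 8 were over 2-fold higher in stroke (24.2%) and 0 were over 2-fold lower. Among 46239 open bins of the genome, 11.3% were over 2-fold higher and 5.1% were over 2-fold lower. The cluster was chosen on Mt2 accessibility in these libraries, and 2 of the 8 bins lie in the Mt2 window. The share here is thus not independent of that choice, and its gap from the genome share is descriptive. With adjoining open bins merged, there were 16 elements, of which 1 was over 2-fold higher and 0 were over 2-fold lower. The intervals of 3 elements lay wholly above 1. No share of merged elements over the genome is given here, so these element counts cannot be set against a background. The 8 bins fell in 5 stretches, all between 8.0 kb before and 11.0 kb after the Mt1 start, and none lay near Mt3 or Mt4. This placing depends on the cutoff. The open bin at -25.0 to -24.5 kb, at the end of Mt3, had 24 sham and 49 stroke cut sites and fell just under 2-fold. So did the open bin at -39.0 to -38.5 kb, after Mt4, with 13 and 28. The bin at 8.5 to 9.0 kb passed with 13 and 29. Every stretch but that between Mt2 and Mt1 adjoins open bins that were not over 2-fold higher, and so is part of a larger element. Apart from the one before Mt2, these stretches overlap no annotated gene.

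Because the 5 stretches were picked for being higher in stroke, their values in these nuclei are descriptive. The first, chr8:94171082-94172081, lies 1.58 to 0.582 kb before the Mt2 start and had 9 sham and 81 stroke fragments, a ratio of 8.19 (4.11 to 18.5). The second, chr8:94174082-94175081, lies between Mt2 and Mt1 and had 10 and 47 fragments, a ratio of 4.28 (2.13 to 9.49). The third, chr8:94181582-94182581, begins 2.5 kb after the Mt1 start and had 11 and 61 fragments, a ratio of 5.04 (2.63 to 10.6). At its summit, 49.0% of the 300 bases are masked as repeats, so reads there can be harder to place. The fourth, at 8.5 to 9.0 kb, had 8 and 19 fragments, and its interval included 1 (0.903 to 5.70). The fifth, at 10.5 to 11.0 kb, had 14 and 40 fragments, a ratio of 2.60 (1.38 to 5.17).

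Nuclei that passed only the neighbour-based astrocyte gate (399 sham and 424 stroke) are given beside these values as a further description. They came from the same 2 libraries, and since Mt2 accessibility in astrocyte-like nuclei of these libraries chose the cluster, the stretch before Mt2, which lies in the Mt2 window, has no values here that are independent of that choice. In these nuclei the stretch before Mt2 had 20 sham and 64 stroke fragments, or 7.59 and 19.0 CPM, a ratio of 2.51 (1.5 to 4.37). The third stretch had 4 and 31 fragments, a ratio of 6.07 (2.15 to 23.7), and the fifth had 15 and 40, a ratio of 2.09 (1.13 to 4.07). All 5 stretches were higher in stroke in these nuclei, and the intervals of the second and the fourth included 1. The Mt2 and Mt1 starts in the same nuclei had ratios near 1, of 0.998 (0.707 to 1.42) and 1.01 (0.752 to 1.37).

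In the other 7 gated classes, of the 5 stretches only that before Mt2 had an interval wholly above 1, with 48 and 53 fragments and a ratio of 1.96 (1.30 to 2.97). Its level there was 2.07 CPM in sham and 4.07 in stroke, against 2.69 and 22.1 in astrocyte-gated nuclei. The second stretch had 31 and 20 fragments in these classes, a ratio of 1.15 (0.620 to 2.08), and the third had 34 and 25, a ratio of 1.31 (0.748 to 2.26). The fourth had 21 and 19, a ratio of 1.61 (0.819 to 3.15), and the fifth had 23 and 14, a ratio of 1.08 (0.515 to 2.20).

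**Figure D3:**
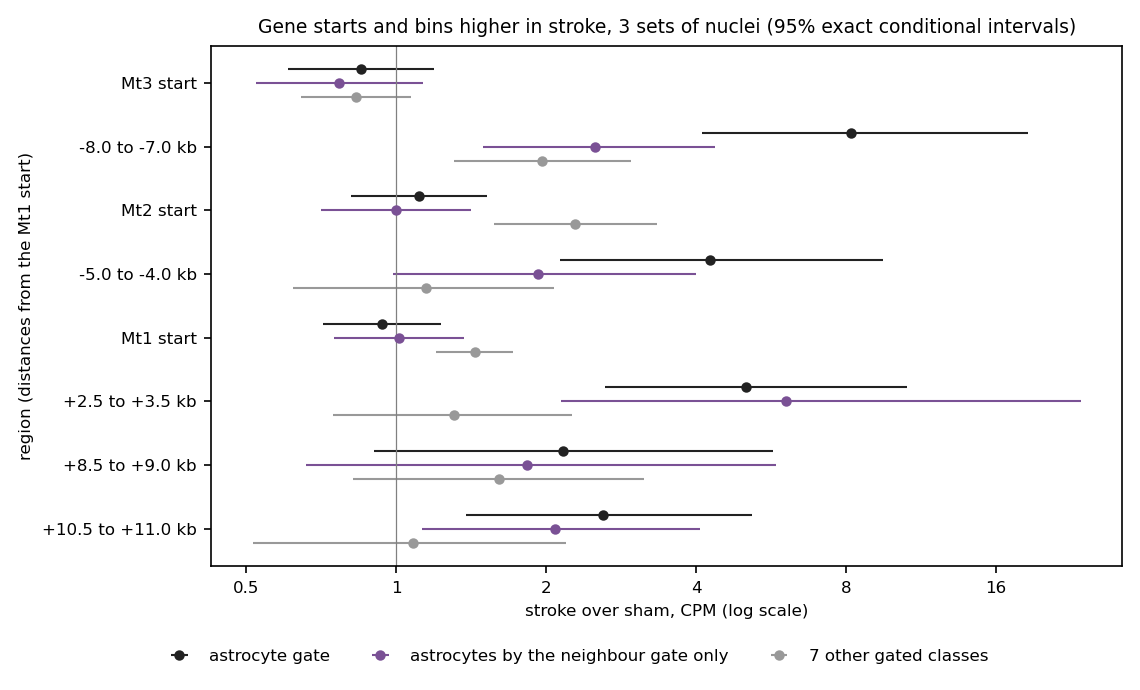
Ratio of stroke to sham in CPM (log scale) for the gene starts and the 5 stretches, with 95% intervals, in astrocyte-gated nuclei (black), nuclei past only the neighbour-based astrocyte gate (purple) and the other 7 gated classes (grey). In both astrocyte sets the intervals of the gene starts include 1, with the Mt3 start at 0.850 and 0.770. The Mt1 and Mt2 starts lie above 1 in the other classes. The points of the stretches lie above 1 in both astrocyte sets. For the black points this was fixed in advance, since the stretches were picked for being higher in stroke in those nuclei.

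Over all kept nuclei, fragments shorter than the DNA wrapped by a nucleosome made up 81.4% of the promoter fragments of Mt1 in sham and 81.3% in stroke. The shares were 75.6% and 78.7% for Mt2, 77.8% and 79.8% for Mt3, and 68.4% and 64.0% for Mt4, which had 57 and 50 promoter fragments of any length. Within each gene the sham and stroke intervals overlapped. Over the promoters of all protein-coding genes the shares were 77.5% and 78.1%.

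At 5000 fragments per nucleus, the share of astrocyte-gated nuclei with a fragment in the Mt2 window was 15.0% in sham (10.6 to 20.2) and 22.7% in stroke (17.9 to 28.0). The share for Mt1 was 15.4% and 18.4%, for Mt3 16.7% and 16%, and for Mt1 or Mt2 29.5% (23.7 to 35.8) and 33.7% (28.2 to 39.5), all with overlapping intervals. With the neighbour-based gate the direction turned for Mt1 or Mt2, at 40.4% in sham (34.7 to 46.3) and 36.6% in stroke (32.2 to 41.3), and for Mt1, at 20.9% and 16.8%. Mt2 was at 22.6% and 24.5% there, again with overlapping intervals, after 262 sham and 213 stroke nuclei with fewer fragments were left out. Without thinning, in the marker gate, Mt1 or Mt2 was seen in 53.1% and 56.5% of nuclei. Nuclei of the marker gate with fewer fragments (22 in sham and 26 in stroke) were left out of the thinned shares.

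Mt2 levels were also set beside those of genes of reactive astrocytes. Astrocyte-gated nuclei of both libraries were divided at the median density of fragments over 12 reactive astrocyte genes, among them Gfap and Vim, the intermediate filaments of reactive astrocytes, and the acute-phase gene Serpina3n. Mt2 and some of these genes had been picked as marking the same stroke nuclei in the earlier results, so the values by this split are a description and support nothing further. In stroke, nuclei over the median (212) had 69.1 CPM at Mt2 (59.1 to 80.3), and those at or under it (96) had 18.8 (11.9 to 28.1). In sham the levels were 34.4 (23.0 to 49.4) over the median and 28.8 (22.6 to 36.3) at or under it, with overlapping intervals. Mt1 stood at 49.9 against 19.6 in stroke and at 38.0 against 37.6 in sham. The gaps in stroke were smaller with the neighbour-based gate, at 68.1 (60.4 to 76.4) against 33.5 (25.8 to 42.8) for Mt2 and at 46.4 (40.1 to 53.4) against 31.9 (24.4 to 41.0) for Mt1, where the intervals overlapped. Mt3 differed less, at 33.5 against 24.5 in stroke, with overlapping intervals.

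The DNA from 2 kb to 500 bases before Mt2 is part of the Mt2 window and was singled out after its values were seen. It had 76 fragments (31.1 CPM) in the stroke nuclei over the median and 8 (6.52 CPM) in those at or under it, against 2 and 9 fragments in sham. The neighbour-based gate gave 129 fragments (30.7 CPM) over the median and 23 (12 CPM) at or under it in stroke, and 1 and 27 in sham. In stroke, astrocyte markers stood at 3.58 times all kept nuclei over the median and 3.2 times at or under it, and median depths were 10221 and 12886 fragments. The part of this gap in marker level in the split was not tested.

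**Figure D4:**
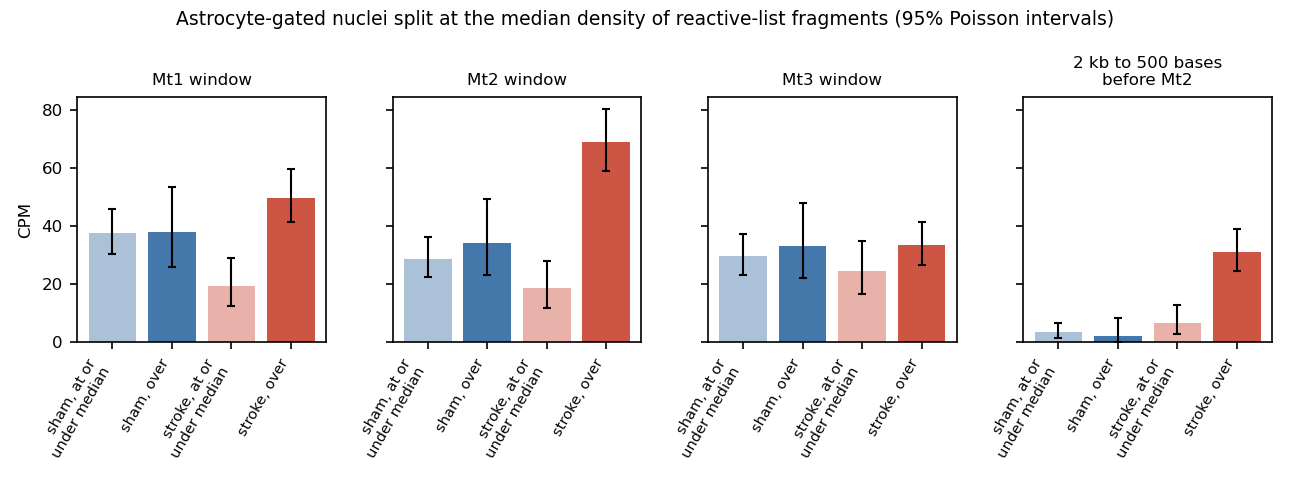
CPM, with 95% Poisson intervals, over the Mt1, Mt2 and Mt3 windows and the DNA 2 kb to 500 bases before Mt2, in astrocyte-gated nuclei of each library at or under the median density of reactive-list fragments (pale) or over it (full colour). The stroke nuclei over the median stand highest in every panel, at 49.9 for Mt1, 69.1 for Mt2, 33.5 for Mt3 and 31.1 for the DNA before Mt2. For Mt1 and Mt3 their intervals overlap those of the sham bars. The intervals of the 2 sham bars overlap in each panel.

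The genes around the cluster had ratios on both sides of 1. Of 6 protein-coding genes that start within 200 kb, 0 passed 2-fold in the astrocyte gate, where 2.67% of all genes were over 2-fold higher and 1.71% lower, so this count sets them apart from no other genes. The median log2 ratio of stroke to sham was -0.08, against -0.05 over all genes. Nup93, a nuclear pore component that starts 35.5 kb after Mt1, had 370 sham and 429 stroke fragments and a ratio of 1.05. Bbs2, a component of the ciliary BBSome, had a ratio of 0.959. Ogfod1, an oxygenase that hydroxylates a ribosomal protein, was the lowest, with 163 and 129 fragments and a ratio of 0.720 (0.567 to 0.913).

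Among genes that move zinc, 1 passed 2-fold. Of 14 Slc39a importers, which bring zinc into the cytosol, 1 was over 2-fold higher in stroke and 0 lower in the astrocyte gate, against 2.67% and 1.71% of all genes compared there, with a median log2 ratio of 0.08. That gene was Slc39a14, a zinc and iron importer induced in inflammation, at 55.4 CPM in sham and 128 in stroke (185 and 469 fragments), a ratio of 2.31 (1.94 to 2.75). Slc39a12, an importer rich in brain, was next at 1.52 (1.15 to 2.02), and Slc39a3 and Slc39a11 were lowest at 0.921 and 0.871. Of 10 Slc30a exporters, 0 passed 2-fold, a count near the same background, and the median log2 ratio was -0.18. Slc30a7, which loads zinc into the Golgi, was highest at 1.93 (1.53 to 2.45) and Slc30a4 next at 1.30. Slc30a8 and Slc30a2 were lowest, at 0.715 (14 and 11 fragments) and 0.674 (27 and 20 fragments). Slc30a1, the plasma membrane exporter and a known Mtf1 target, stood at 0.725 (0.556 to 0.943), and is named here after its value was seen.

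Of 15 genes of copper and iron handling, 0 passed 2-fold in the astrocyte gate, near the background of 2.67% higher and 1.71% lower, and the median log2 ratio was 0.07. Cp, which encodes the copper ferroxidase ceruloplasmin, had a ratio of 1.79 (1.10 to 2.95) and Slc31a2, a copper transporter, 1.61 (1.23 to 2.13). Cox17, a copper chaperone of mitochondria, had 0.670 (0.485 to 0.922), and Slc40a1, the iron exporter ferroportin, had 0.606 on 21 and 14 fragments. Of 11 glutathione and thiol genes, 0 passed 2-fold, again near that background, and the median log2 ratio was 0.24. Gsr, which regenerates glutathione, was highest at 1.67 (1.32 to 2.13), followed by Srxn1, a sulfiredoxin, at 1.43. Gpx4 and Gss, which reduce lipid peroxides and make glutathione, were lowest at 0.807 and 0.778.

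Of 8 known regulators of metallothionein genes, 0 passed 2-fold in the astrocyte gate, where the background was 2.67% higher and 1.71% lower. Their median log2 ratio was -0.05. Nfe2l2, the factor of the oxidant response, had 127 sham and 231 stroke fragments and a ratio of 1.65 (1.33 to 2.07), and Stat3 followed at 1.09. Usf2 and Usf1, which bind E-boxes, were lowest at 0.800 and 0.776. Of 10 glucocorticoid-responsive genes, 0 passed 2-fold, also near the background, and the median log2 ratio was -0.03. Fkbp5, a chaperone of the glucocorticoid receptor, came nearest at 60.5 CPM in sham and 117 in stroke, a ratio of 1.94 (1.63 to 2.30), and the cell cycle inhibitor Cdkn1a followed at 1.53 (1.16 to 2.05). The kinase Sgk1 and the clock gene Per1 were lowest, at 0.854 and 0.841.

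Of the lists compared, the reactive astrocyte genes had the highest median. Of 12, 8 were over 2-fold higher in stroke and 0 lower, against 2.67% and 1.71% of all genes in the astrocyte gate, with a median log2 ratio of 1.44, and this list was chosen with earlier results in view. Hspb1, a small heat shock protein, had a ratio of 5.31 (2.21 to 15.4) on 6 and 35 fragments, and Serpina3n had 5.18 (2.85 to 10.2). Steap4, a metalloreductase, and S1pr3, a lipid receptor, were lowest at 1.36 and 1.30, with intervals that included 1.

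Levels were also compared across the 16 combinations of class and library, over 17969 genes with at least 200 fragments. These points share libraries, depth and gates, and the coefficients are descriptive. Mt2 was most like Aqp4, the astrocyte water channel and a gating marker (Pearson r of 0.94), then Vcam1 (0.937), Tfcp2l1 (0.936), Pdk4 (0.925) and Prdm16 (0.921). Mt1 was most like Zbtb20 (0.896), Sox21 (0.874), Acadl (0.874), Pdlim5 (0.870) and Notch2 (0.868), and Mt3 was most like Nudt9 (0.866), Gldc (0.830), Armc1 (0.828), Kirrel2 (0.827) and Agt (0.822). Mt1 and Mt2 resembled each other (0.834) more than either resembled Mt3 (0.265 and 0.467).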

How the data were processed

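The authors processed reads with Cell Ranger ATAC 2.1.0 against mm10 and deposited, per library, a fragment list and per-barcode counts, which are raw counts without normalization. No deposited cell labels were used here. From these files, called barcodes with over 20% of fragments in peaks were kept, and fragments overlapping each GENCODE M21 protein-coding gene plus 2 kb upstream were counted and scaled to 1000000 fragments of the same nuclei (CPM), with Python 3.11.15, numpy 2.4.6 and scipy 1.17.1. The highest chromosome 8 position in the files (129301177) lay within the GRCm38 length (129401213). A nucleus joined the class with the highest marker excess, 2(√(observed + 0.375) − √(expected + 0.375)), if that was at least 3. The second gate used 30 components of a latent semantic index of 5000-base tiles and a threshold of 4. Doublets were not called, and an alternative left out nuclei past more than 1 gate.

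Genes were compared at 20 or more fragments in both libraries together. With 1 library per condition there was no test, and intervals cover counting error only. Ratios and intervals were also run on simulated independent Poisson counts, the model that the intervals assume. Those counts hold no spread between nuclei or libraries, so that run cannot show how the intervals fare with such spread. Members, marker genes and gene lists were chosen with earlier results of these data known. Named genes were the members, genes that start within 200 kb, the 2 highest and 2 lowest ratios of each list and the 5 genes most like each of Mt1, Mt2 and Mt3. The split of the window, the stretches, and the division by reactive genes were chosen after seeing the data. Motifs were searched as exact strings on both strands; all 4 members matched a RefSeq promoter (GRCm38.p6), whose starts differ from the GENCODE starts by up to 46 bases. Barcodes not called as nuclei were not used.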

Additional observations from a re-analysis of the deposited data

How the results depend on the processing

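Of 139 values recomputed under alternatives, 115 stayed within the main interval (or within 1.5 times a count), 23 moved outside it and 1 went from an interval wholly on one side of 1 to a value on the other side. Ratios whose own intervals included 1 also crossed 1 under some alternatives, namely Mt3 over all nuclei, Mt1, Mt3 and Mt4 in the astrocyte gate, the sham ratio of Mt4 in astrocytes to other classes, and the Mt1 and Mt2 starts. With all called barcodes, the Mt1 ratio over all nuclei fell from 1.32 to 0.913, and those of Mt2 and Mt3 were 1.32 and 0.666; that setting adds 3686 stroke barcodes with few fragments in peaks. Scaling to fragments in peaks gave 1.55 for Mt1, 2.16 for Mt2 and 1.14 for Mt3 over all nuclei, the Mt3 interval excluding 1 under both settings, and shifted the median log2 ratio of all genes by 0.23. With a stricter gate, Mt4 had no stroke astrocyte fragment, so its ratios to sham and to other classes were both 0. The neighbour-based gate gave sham astrocyte ratios over other classes of 3.0 for Mt1, 6.73 for Mt2 and 0.401 for Mt4. The ratio for the DNA 2 kb to 500 bases before Mt2 stayed within its interval under all 8 alternatives run on it. That interval is wide (3.69 to 14.4), the alternatives draw on the same 2 libraries, and this DNA was singled out after its values were seen. Staying within the interval is therefore no independent check.

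Genes over 2-fold higher across all kept nuclei (955) numbered 585 with at least 50 fragments, 1633 when scaled to fragments in peaks and 624 for promoters only. Those over 2-fold lower (4) numbered 1, 0 and 68 under the same settings and 24 with no minimum beyond 1 fragment in each library. In the astrocyte gate, 450 higher and 289 lower genes became 204 and 145 with at least 50 fragments and 1179 and 844 with no such minimum. Bins of 200 bases gave 30.5% of open bins in the window over 2-fold higher, against 16.6% over the genome. Since the cluster was chosen on Mt2 accessibility in these libraries, this gap is descriptive. Of the 82 bins, 5 were over 2-fold lower, a count for which no genome share is given here. Without thinning, Mt1 or Mt2 was seen in 53.1% of sham and 56.5% of stroke astrocyte-gated nuclei. No paired analysis was possible because sham and stroke were 1 library each. Depth limited the precision for Mt4 and for the single classes, where intervals were wide.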
